A study of Rattus norvegicus with 23 samples.

Results

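The genes described here are Fcho2, Aff1, Trim44, Arhgef12, Kmt2e, Sf3b1, Pnn, Dhx15, Topors and Mga, 10 of the 30562 genes in the deposited table. They were selected on measured values, as genes that ranked high by p-value among those above healthy control in the femora of MetOP rats given saline, and were then followed through 3 drug groups. Each name matched 1 row of the table, and all 10 were among the 15271 genes that passed the filter on low counts. The study read polyadenylated RNA in bulk from 23 libraries of female Wistar rat femora. MetOP, a rat model of metabolic osteoporosis, combines a high-fat diet with L-NAME, which blocks nitric oxide synthase. The healthy control group (n = 4) had a standard diet and saline, and its titles read oLN. MetOP saline (n = 5) had the model and saline. MetOP with semaglutide (n = 5), an agonist of the GLP-1 receptor, MetOP with PYY3-36 (n = 4, called PYY), a gut peptide, and MetOP with both drugs (n = 5, called combination) had the model and the named agents. All MetOP titles also carry lfd, which the labels do not explain, as they do not explain oLN. Titles of the PYY libraries also carry saline, and those of the semaglutide and combination libraries do not. The treatment labels of the PYY libraries read PYY3-36, PYY3-37, PYY3-38 and PYY3-39, and the libraries were grouped by their shared title. Age, dose and duration were not stated in the labels used here. Nor do the labels say whether each library is a separate animal, so a p-value speaks only of spread among libraries, which may be technical. Each library is named by its deposited column, such as A238.

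Pre-mRNA splicing removes introns through the spliceosome, in which the U2 particle binds the branch site and RNA helicases drive each rearrangement. Chromatin regulators and elongation factors set how readily RNA polymerase enters and crosses a gene. Several of these genes are known from bone marrow. SF3B1 is often mutated in myelodysplastic syndromes with ring sideroblasts, AFF1 is a fusion partner of KMT2A in acute leukaemia, and KMT2E is needed for normal blood stem cells.

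A description of the set as splicing and chromatin genes covers only some of it. Sf3b1 encodes the large subunit of SF3b within the U2 particle, Pnn encodes pinin, a nuclear speckle protein of the exon junction, and Dhx15 encodes the helicase that takes apart spent spliceosomes. Kmt2e encodes a SET-domain protein that reads methylated histone H3, and Mga encodes a partner of MAX that anchors a variant polycomb complex. Aff1 encodes a scaffold of the super elongation complex, and Topors encodes a ligase for ubiquitin and SUMO that binds topoisomerase I. The other three act outside these processes: Fcho2 encodes a membrane-bending adaptor that starts clathrin-coated pits, Arhgef12 a guanine nucleotide exchange factor for RhoA, and Trim44 a tripartite motif protein with a ubiquitin-protease type zinc finger.

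In the build of the files, mRatBN7.2, Sf3b1 (ENSRNOG00000013516) lies on the minus strand at chr9:56492403-56532300, Pnn (ENSRNOG00000004061) on the plus strand at chr6:76758117-76766889 and Dhx15 (ENSRNOG00000003844) on the plus strand at chr14:58787127-58825088. Kmt2e (ENSRNOG00000021614) lies on the minus strand at chr4:11658979-11727373, Mga (ENSRNOG00000006378) on the plus strand at chr3:106851140-106941043, Aff1 (ENSRNOG00000002232) on the minus strand at chr14:5863961-6024729 and Topors (ENSRNOG00000006485) on the minus strand at chr5:55387632-55399937. Fcho2 (ENSRNOG00000015334) lies on the minus strand at chr2:30080962-30181241, Arhgef12 (ENSRNOG00000008924) on the minus strand at chr8:43353799-43476366 and Trim44 (ENSRNOG00000005191) on the minus strand at chr3:88592719-88729188. The genes do not form 1 cluster, and Trim44 and Mga, as well as Aff1 and Dhx15, share only a chromosome.

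The promoters of the splicing genes and of Topors are shown because these 4 genes had the smallest differences between saline and healthy control and held most of the motif matches near the start site. RefSeq promoter windows of GRCr8, a later build than that of the files, were found for 9 of the 10 genes, Kmt2e being the one without. The last 120 bases before the annotated start are given 5′ to 3′ on the strand of the gene, with matches in capitals. The stretches are chr9:64026720-64026839 on the minus strand, chr6:82492912-82493031 on the plus strand, chr14:62999778-62999897 on the plus strand and chr5:60195980-60196099 on the minus strand.
Sf3b1: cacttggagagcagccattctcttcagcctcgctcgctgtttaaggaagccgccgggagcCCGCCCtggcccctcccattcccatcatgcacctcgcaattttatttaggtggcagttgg
Pnn: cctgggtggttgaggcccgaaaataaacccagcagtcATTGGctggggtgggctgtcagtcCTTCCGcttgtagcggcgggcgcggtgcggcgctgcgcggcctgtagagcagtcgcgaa
Dhx15: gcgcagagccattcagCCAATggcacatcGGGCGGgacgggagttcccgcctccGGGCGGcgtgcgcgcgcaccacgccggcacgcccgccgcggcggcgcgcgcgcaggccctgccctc
Topors: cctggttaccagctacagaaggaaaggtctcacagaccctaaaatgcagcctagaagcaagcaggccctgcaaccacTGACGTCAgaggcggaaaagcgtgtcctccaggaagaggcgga
Motifs were searched on both strands in the 250 bases before the start. The GC box (GGGCGG) was present in 5 of the 9 promoters (Fcho2, Aff1, Trim44, Sf3b1 and Dhx15) and in 32.4% of all 27457 promoters, and CCAAT in 3 (Pnn, Dhx15 and Mga) and in 34.3% of all. The ETS core (CGGAAG) was present in 2 (Trim44 and Pnn; 14.7% of all), the cAMP response element TGACGTCA in 1 (Topors; 1.7% of all) and the AP-1 site TGANTCA in 1 (Trim44; 6.36% of all). The E-box CACGTG (5.79% of all) and the NRF1 core GCATGCG (3.14% of all) matched none of the 9. No match in the printed stretches overlapped another, and no motif was shared by all 9 promoters.

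Library totals ran from 19.25 to 40.65 M counts, of which 46.1 to 83.9% came from mitochondrially encoded genes. All other genes together had 4.28 to 16.1 M counts per library. Levels are counts per M, the unit of CPM, scaled by TMM factors, and each of the 10 genes had at least 27 counts in every library. All 12 osteoblast and osteocyte markers had counts in each of the 5 groups, as the tissue label would have it, and their summed level ran from 1160 to 6450 CPM in healthy control and from 386 to 6900 CPM in MetOP saline. Skeletal muscle markers (13 of 15 tested) took 8.0 to 13.1% of non-mitochondrial counts in healthy control and 5.48 to 10.53% in MetOP saline, so muscle RNA was present in both. In saline against healthy control, muscle markers were lower for 13 of 13 (median log2 difference -0.453), while chondrocyte markers were higher for 8 of 8 (1.17), osteoclast markers for 7 of 8 (0.852), macrophage markers for 7 of 8 (0.568), adipocyte markers for 6 of 7 (0.918) and osteoblast and osteocyte markers for 9 of 12 (0.317). Erythroid markers were higher for 7 of 8 (0.329), fibroblast markers for 5 of 8 (0.231), B cell markers for 4 of 7 (0.393) and neutrophil markers for 4 of 7 (0.0736). Endothelial markers were higher for 3 of 8 (-0.0578). No marker passed adjustment (edgeR), and their part in the values of the 10 genes was not tested. In bulk RNA, fewer cells of a type and less RNA per cell cannot be told apart.

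All 10 genes had their lowest mean in healthy control and stood higher in every MetOP saline library than in any healthy control library. This contrast chose them, so the values are a description with no test. By the rank of their p-value among the 8010 genes higher in saline, 5 of the 10 were in the top 10, 9 in the top 100 and all in the top 200, with Sf3b1 last at rank 186. By the size of the log2 difference they ranked lower, from 643 (Fcho2) to 3310 (Dhx15) of the same 8010. Over all tested genes, 1.57% stood wholly above healthy control in this way. The edgeR quasi-likelihood test with Benjamini-Hochberg adjustment called 0.0% of the 15271 genes between saline and healthy control, while 4.68% were higher and 1.87% lower at an unadjusted p under 0.05. DESeq2 called 0.308% of genes (47), and all 10 were among them, from which nothing is read because this contrast chose them. The median log2 difference was 1.07 over the 10 genes and 0.0355 over all tested genes. The 5 other genes next in rank (Ddr2, Mob1b, Itpkb, Mrtfb and Zbtb11) lay at ranks 5 to 9, and Ddr2, a collagen receptor kinase, had means of 6.2 CPM in healthy control and 19.3 CPM in saline.

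Among the splicing genes, Sf3b1 stood at 75.5, 79.7, 84.4 and 81.8 CPM in healthy control and at 142, 105, 113, 113 and 117 CPM in MetOP saline. It stood at 88.4, 107, 93.1, 103 and 92.1 CPM with semaglutide, at 122, 150.2, 122 and 102 CPM with PYY and at 119, 97.5, 128, 109 and 148 CPM with the combination. The semaglutide libraries filled the gap between healthy control and most of the saline libraries, and 4 of the 5 lay below every saline library. The log2 difference from healthy control was 0.55 ± 0.20 (SE) in saline, 0.27 ± 0.20 with semaglutide, 0.63 ± 0.21 with PYY and 0.58 ± 0.20 with the combination. Sf3b1 was the most abundant of the 10 per length, at a mean of 15.5 FPKM in healthy control against 0.219 FPKM for Aff1, the lowest.

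Dhx15 was the gene that lay closest to healthy control under semaglutide. It stood at 36.6, 25.9, 32.9 and 34.1 CPM in healthy control, at 48.5, 47.8, 49.4, 47.0 and 40.7 CPM in saline and at 34.4, 41.5, 34.7, 32.0 and 34.3 CPM with semaglutide. It stood at 42.8, 45, 45.6 and 40.6 CPM with PYY and at 37.7, 37.8, 47.6, 35.5 and 48.7 CPM with the combination. Only semaglutide library A240 stood above every healthy control library, whereas all PYY libraries did. The log2 difference from healthy control was 0.13 ± 0.16 with semaglutide and 0.43 ± 0.17 with PYY, and the difference of semaglutide from saline was -0.40 ± 0.16. Pnn ran from 27.7 to 34.0 CPM in healthy control, from 42.0 to 51.7 CPM in saline, from 35.5 to 50.2 CPM with semaglutide, from 37.1 to 51.8 CPM with PYY and from 30.0 to 54.5 CPM with the combination. Its widest spread was in the combination, where 1 library lay inside the range of healthy control.

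Of the chromatin genes, Kmt2e stood at 8.48, 8.42, 12.9 and 13.9 CPM in healthy control and at 22.5, 21.4, 30.4, 24.1 and 19.9 CPM in saline. It stood at 12.8, 23.8, 19.2, 19.5 and 12.8 CPM with semaglutide, at 34.6, 29.5, 28.4 and 18.8 CPM with PYY and at 23.5, 14.9, 18.3, 23.5 and 28.5 CPM with the combination. With semaglutide, 2 of 5 libraries (A238 and A243) lay within the range of healthy control, and with PYY none did. The log2 difference from healthy control was 1.12 ± 0.25 in saline, 0.69 ± 0.25 with semaglutide, 1.35 ± 0.26 with PYY and 0.99 ± 0.25 with the combination.

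Mga was the exception among the 10, with its mean lower in saline than in any drug group. It stood at 3.06, 4.48, 6.02 and 3.73 CPM in healthy control, at 7.58, 9.18, 9.29, 8.87 and 8.96 CPM in saline and at 9.28, 12.8, 10.6, 13.9 and 6.88 CPM with semaglutide. It stood at 11.9, 14.4, 10.1 and 13.6 CPM with PYY and at 9.75, 8.7, 10.4, 12.1 and 10.7 CPM with the combination. All 4 PYY libraries lay above all 5 saline libraries, and the log2 difference of PYY from saline was 0.51 ± 0.23. Among the 10 this separation was seen for Mga alone, and among all 15271 tested genes it was seen for 169. Against healthy control the log2 difference was 1.02 ± 0.23 in saline and 1.53 ± 0.25 with PYY.

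The transcription regulator Aff1 stood at 0.962, 2.45, 2.1 and 1.9 CPM in healthy control and at 4.26, 5.28, 11.6, 7.71 and 7.02 CPM in saline, a log2 difference of 1.95 ± 0.37. It ran from 2.53 to 7.04 CPM with semaglutide, from 4.38 to 6.24 CPM with PYY and from 4.34 to 6.63 CPM with the combination. Its 3 drug-group means, 5.4, 5.25 and 5.34 CPM, were close to each other and below the saline mean of 7.18 CPM, by less than the saline SD of 2.84. Topors ran from 7.82 to 10.1 CPM in healthy control and from 10.7 to 14.9 CPM in saline. Its drug-group means were 11.9 ± 0.74 CPM (SD, n = 5) with semaglutide, 11.7 ± 0.63 CPM (n = 4) with PYY and 11.7 ± 1.8 CPM (n = 5) with the combination.

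Fcho2 had the largest difference of the 10 between saline and healthy control. It stood at 1.57, 2.07, 2.97 and 4.03 CPM in healthy control, at 7.52, 11.6, 7.28, 16 and 10.96 CPM in saline and at 3.91, 8.2, 6.28, 6.95 and 3.12 CPM with semaglutide. It stood at 10.9, 10.8, 11.9 and 7.55 CPM with PYY and at 5.07, 6.14, 6.97, 7.47 and 15.2 CPM with the combination. Semaglutide libraries A238 and A243 fell within the healthy control range, and 4 of the 5 semaglutide libraries lay below every saline library. The log2 difference from healthy control was 2.01 ± 0.38 in saline, 1.10 ± 0.37 with semaglutide, 1.96 ± 0.39 with PYY and 1.63 ± 0.37 with the combination.

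Arhgef12, the RhoA exchange factor, ran from 3.14 to 7.76 CPM in healthy control, from 10.04 to 20.2 CPM in saline and from 9.19 to 17.9 CPM with semaglutide. It ran from 12.3 to 17.9 CPM with PYY and from 7.55 to 14.1 CPM with the combination, where library A251 lay within the healthy control range. Trim44 ran from 4.38 to 6.75 CPM in healthy control, from 8.36 to 18.7 CPM in saline and from 8.17 to 12.1 CPM with semaglutide. It ran from 9.11 to 20.6 CPM with PYY and from 7.46 to 16.8 CPM with the combination, always above healthy control. The log2 difference between saline and healthy control was 1.41 ± 0.28 for Arhgef12 and 1.48 ± 0.28 for Trim44.

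**Figure D1:**
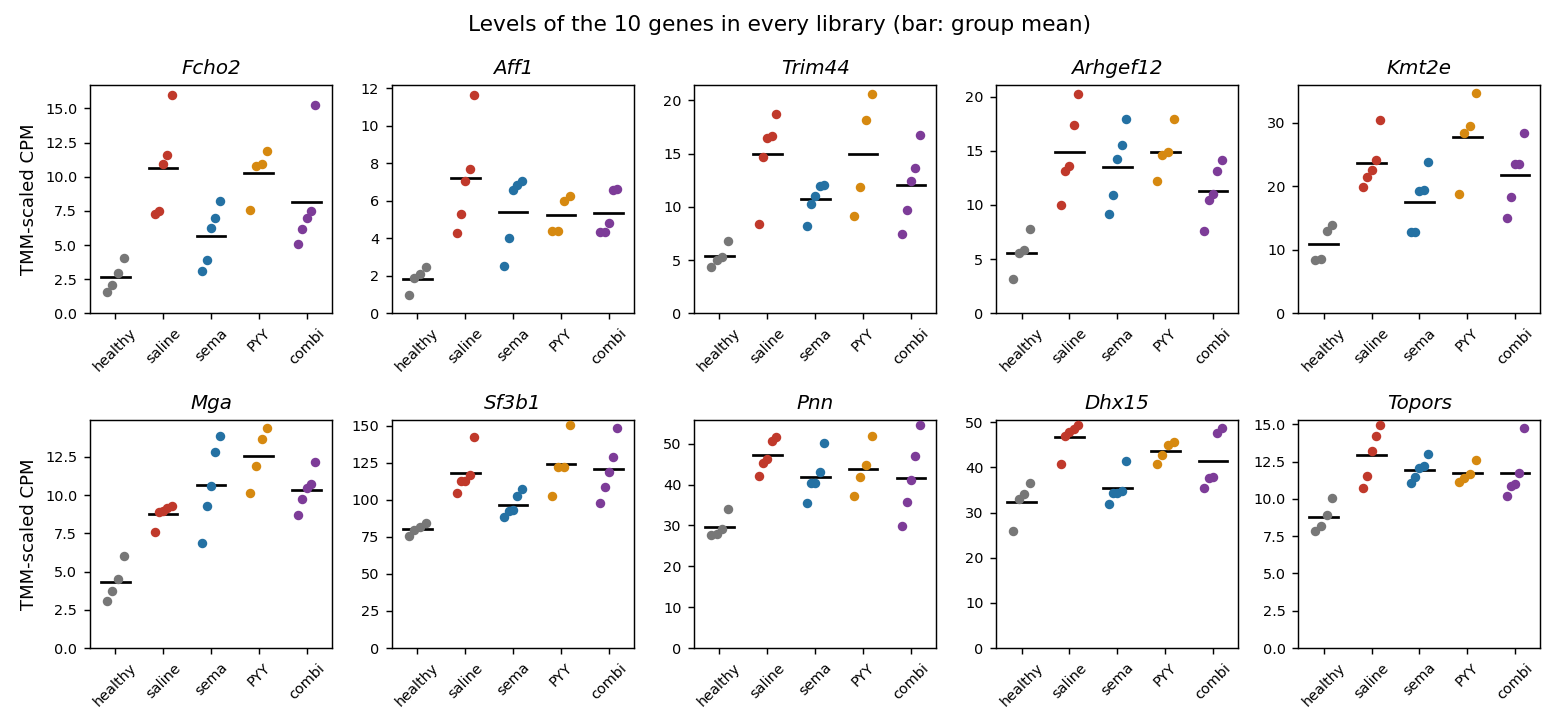
Level of each of the 10 genes (vertical axis, TMM-scaled CPM, from 0) in every library, by group (horizontal axis: healthy control, MetOP saline, semaglutide, PYY, combination); points are libraries and bars are group means. Healthy control libraries lie below all saline libraries in each panel, and Mga is the gene whose saline mean, 8.77 CPM, is below its 3 drug-group means.

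In the order of group means, healthy control was lowest for all 10 genes on 3 scales: CPM, the authors' FPKM, and CPM of non-mitochondrial counts. Which group was highest depended on the scale. On CPM, saline was highest for 7 genes and PYY for 3. On FPKM the split was 5 and 5, and on non-mitochondrial CPM saline was highest for 1 and PYY for 9. The order of saline and PYY is therefore not given as a result. Neighbours in the CPM order differed by more than the larger of their SDs at the step to healthy control for 9 of the 10 genes (Dhx15 was the exception), at the step from saline to semaglutide for Sf3b1 and at the step from combination to saline for Mga.

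Against healthy control, all 10 genes had positive log2 differences in each drug group, from 0.13 (Dhx15 with semaglutide) to 1.96 (Fcho2 with PYY). Among all tested genes, 51.7% were positive with semaglutide, 52.7% with PYY and 52.3% with the combination. These comparisons share the healthy control libraries that the selection used, so they too are described without a test. All 10 genes stood wholly above healthy control with PYY, where 4.86% of all tested genes did. With semaglutide 7 of 10 did, against 2.06% of all genes, the exceptions being Fcho2, Kmt2e and Dhx15. With the combination 7 of 10 did, against 0.864% of all genes, the exceptions being Arhgef12, Pnn and Dhx15. The median log2 difference from healthy control was 1.07 in saline, 0.843 with semaglutide, 1.38 with PYY and 1.0 with the combination. With a covariate for the level of long against short genes, defined beside the gene lengths, these medians were 0.803, 0.633, 0.758 and 0.676. Kmt2e was then at 0.53 with PYY in place of 1.35, and Topors at 0.085 in place of 0.42.

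**Figure D2:**
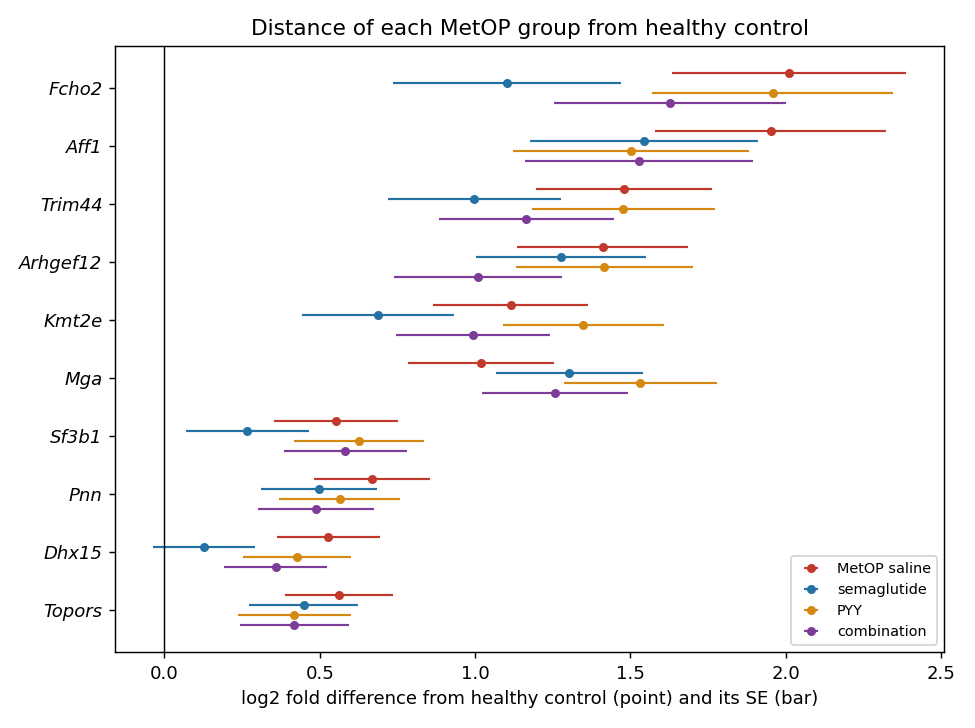
Log2 fold difference of each MetOP group from healthy control (horizontal axis) for each of the 10 genes (vertical axis); points are fitted values, bars are SE, and colours are groups that share the same 4 healthy control libraries. Semaglutide points lie lowest for Fcho2, Trim44, Kmt2e, Sf3b1 and Dhx15, down to 0.13 for Dhx15.

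Against saline, semaglutide was lower for 9 of the 10 genes, with a median log2 difference of -0.343 beside -0.038 over all tested genes. The largest was for Fcho2 (-0.91 ± 0.34), followed by Trim44 (-0.48 ± 0.26) and Kmt2e (-0.43 ± 0.23), and the 1 positive value was Mga (0.28 ± 0.21). PYY had 6 lower and 4 higher, with a median of -0.0278 beside -0.00702 over all tested genes. The combination had 8 lower and 2 higher, with a median of -0.175 beside 0.0236. Of all tested genes, 47.6% were higher than in saline with semaglutide, 49.5% with PYY and 52.5% with the combination. The saline libraries were high by selection, so these differences from saline carry no test. Levels in the drug groups were not used for the selection, and these groups are compared with each other below. The fit took the spread of each gene over all 23 libraries, including those used for the selection. SE and p between drug groups are therefore not fully independent of it.

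No gene of the 10 passed adjustment in any of the 3 comparisons between drug groups (edgeR quasi-likelihood test, Benjamini-Hochberg over 15271 genes). Between semaglutide and PYY, 8 of 10 were lower with semaglutide, with a median log2 fold change of -0.264 beside -0.0646 over all genes. Among all tested genes, 46.7% were higher with semaglutide. Kmt2e was at -0.66 (95% interval -1.17 to -0.155; unadjusted p = 0.0114, adjusted p = 0.195 in edgeR) and 2 of 5 semaglutide libraries lay below all 4 PYY libraries. Fcho2 was at -0.85 (95% interval -1.59 to -0.116; unadjusted p = 0.0229, adjusted p = 0.235 in edgeR) and 4 of 5 semaglutide libraries lay below all PYY libraries. These 2 were the genes of the 10 at an unadjusted p under 0.05, both lower with semaglutide. Over all tested genes, 0.00655% passed adjustment, and 9.93% were lower and 6.93% higher at that unadjusted threshold. A count of 2 in 10 genes is too small to be told apart from the 9.93%.

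The next genes were Trim44 at -0.48 ± 0.27, Sf3b1 at -0.36 ± 0.20 and Dhx15 at -0.30 ± 0.16, with adjusted p of 0.376, 0.358 and 0.359 in edgeR. Their intervals reached from -1.05 to 0.0888, from -0.772 to 0.0523 and from -0.643 to 0.0444. Arhgef12 (-0.14 ± 0.26), Mga (-0.23 ± 0.23) and Pnn (-0.07 ± 0.18) were lower by no more than about their SE. Aff1 (0.04 ± 0.35) and Topors (0.03 ± 0.17) lay near 0, with intervals from -0.691 to 0.772 and from -0.332 to 0.392. DESeq2 called 487 genes and limma voom 1, none of them among the 10.

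The 1 gene called among all genes was Ddr2, at -2.43 ± 0.32 (adjusted p = 0.0014 in edgeR), which had also been next to the 10 in rank. Without PYY library A220, 1021 genes were called between semaglutide and PYY, none of them among the 10, and Kmt2e was then at -0.81 with an adjusted p of 0.0504 in edgeR. Without semaglutide library A242 the number of genes called was 3, and with the long-minus-short level (defined with the gene lengths) as a covariate it was 0.

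Between combination and semaglutide, 5 of 10 genes were higher and 5 lower with the combination, with a median of 0.0785 beside 0.0528 over all genes. Among all tested genes, 53.7% were higher with the combination. The largest value was Fcho2 at 0.52 (95% interval -0.177 to 1.23), followed by Sf3b1 at 0.32 (-0.0741 to 0.707) and Kmt2e at 0.31 (-0.175 to 0.786). Without combination library A320, Fcho2 was at 0.17 and Sf3b1, then the highest, at 0.23. Adjusted p ran from 0.816 to 0.996 in edgeR, and none of the 10 had an unadjusted p under 0.05. Over all genes, 0.0% passed adjustment, and 3.99% were higher and 1.66% lower at the unadjusted threshold. DESeq2 called 12 genes and limma voom 0, none of them among the 10.

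Between combination and PYY, 8 of 10 were lower with the combination, with a median of -0.175 beside 0.0226 over all genes. Among all tested genes, 52.0% were higher with the combination. The largest were Arhgef12 at -0.41 (95% interval -0.958 to 0.146) and Kmt2e at -0.36 (-0.862 to 0.151). Adjusted p ran from 0.904 to 1.0 in edgeR, and none of the 10 had an unadjusted p under 0.05. Over all genes, 0.0% passed adjustment, and 2.05% were higher and 4.19% lower at the unadjusted threshold. DESeq2 called 10 genes and limma voom 1, none of them among the 10.

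**Figure D3:**
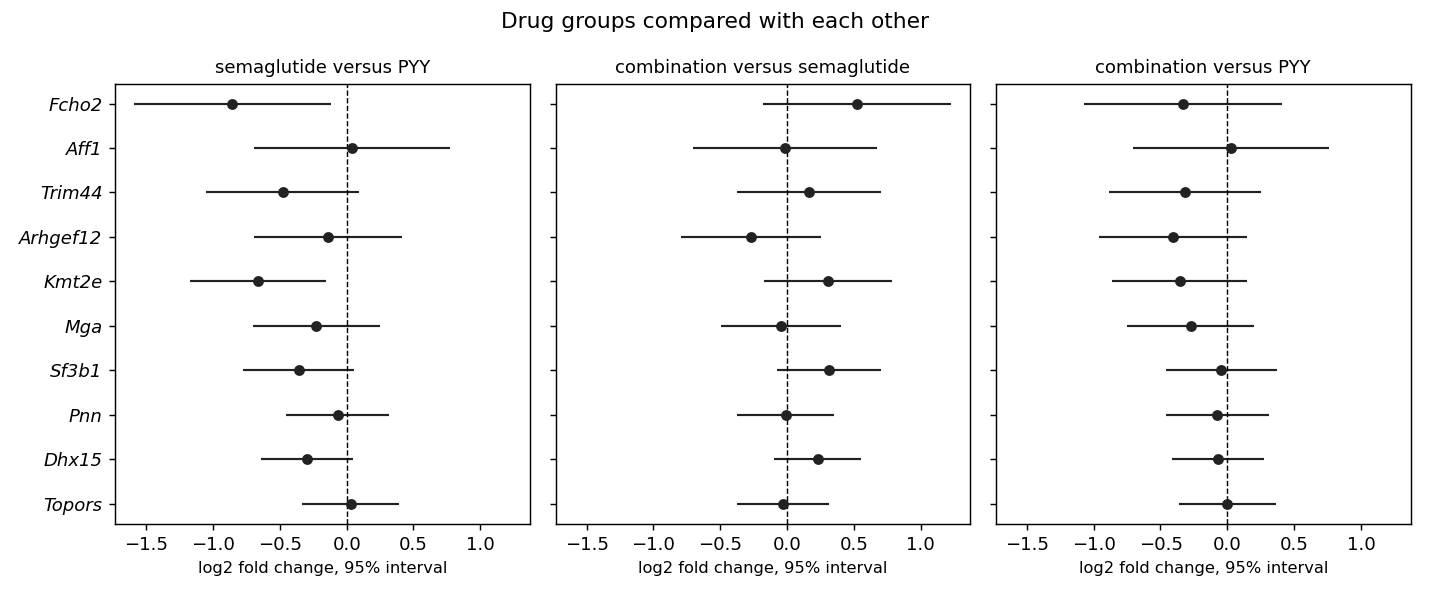
Log2 fold change (horizontal axis) of each of the 10 genes (vertical axis) in the 3 comparisons between drug groups; points are fitted values and bars are 95% intervals. In the semaglutide versus PYY panel the intervals of Fcho2 and Kmt2e lie below 0, and no gene passed adjustment in any panel.

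Most of the 10 genes are long in the deposited annotation, a property that the selection did not name. Their lengths ran from 3117 bases (Fcho2) to 11748 bases (Mga), percentiles 53.6 to 98.5 of the tested genes, so none lay in the 5 shortest deciles, 2 (Fcho2 and Pnn) lay in the decile above the median and 7 in the 2 longest. Between saline and healthy control, the median log2 difference of all tested genes climbed from -0.172 in the shortest decile to 0.204 in the longest, and the share of genes higher in saline from 40.1 to 66.4%. Between semaglutide and PYY the order was the opposite, from 0.252 in the shortest decile to -0.187 in the longest.

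The long-minus-short level, the mean log2 CPM of the longest decile minus that of the shortest, ran from 1.22 to 1.53 in healthy control, from 1.53 to 1.80 in saline, from 1.52 to 1.78 with semaglutide, from 1.69 to 2.18 with PYY and from 1.415 to 1.90 with the combination. The decile holds Aff1 and Mga among 1530 genes. With this level as a covariate, the saline difference from healthy control was 0.68 for Kmt2e in place of 1.12, 0.34 for Sf3b1 in place of 0.55 and 1.59 for Fcho2 in place of 2.01. It was 1.996 for Aff1 and 0.73 for Pnn, no smaller than without it. The same covariate moved the semaglutide versus PYY value to -0.21 for Kmt2e and to -0.44 for Fcho2. RNA quality was not measured in the files, and its part in these values was not tested.

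**Figure D4:**
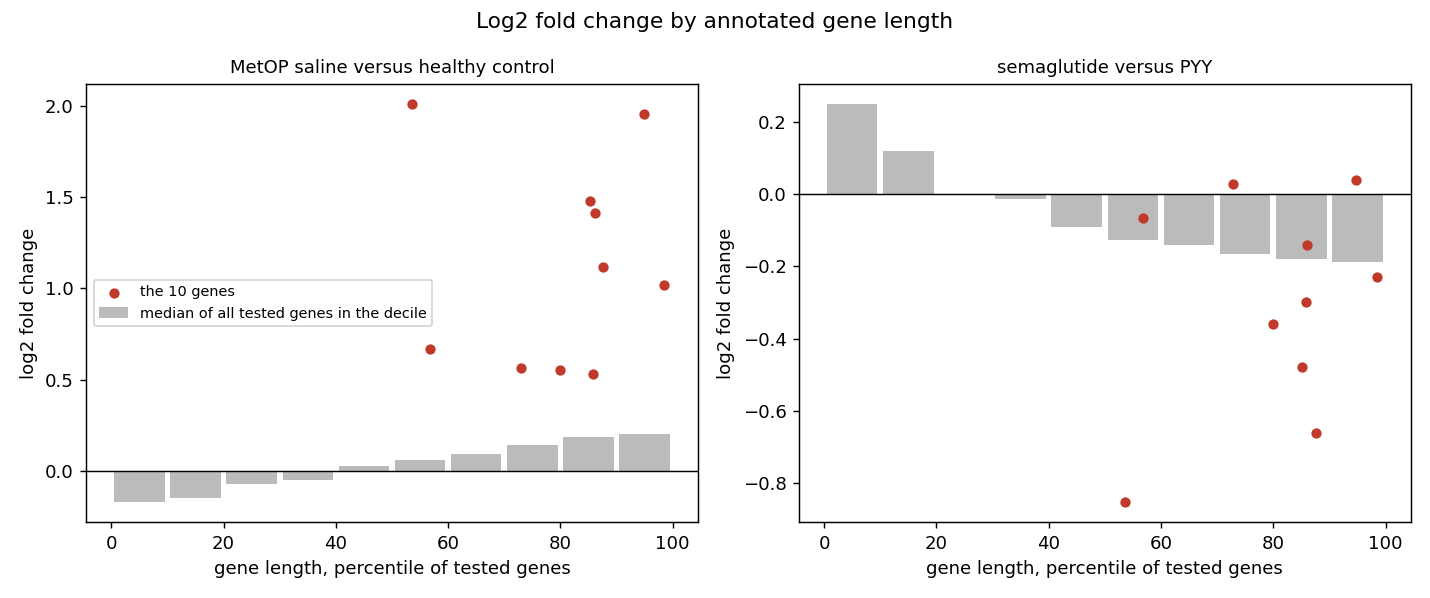
Log2 fold change (vertical axis) against gene length as a percentile of tested genes (horizontal axis) for saline versus healthy control and semaglutide versus PYY; grey bars are medians of all tested genes per length decile and red points are the 10 genes. The medians climb from -0.172 to 0.204 in the first panel and drop from 0.252 to -0.187 in the second, and each red point lies above the 50th percentile of length.

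Across the 14 drug-group libraries, which the selection did not use, the genes were compared with 4 measures of the library. The same relations were not computed over all tested genes, so the counts that passed are not read as a trait of the 10. Every one of the 10 had a negative Pearson r with the muscle share of non-mitochondrial counts, with a median of -0.627, and 5 of 10 passed adjustment over the 40 relations computed (permutation test, 2-sided). Within groups 1 of 10 passed (Sf3b1). Topors was at -0.0113, and Aff1 at 0.0837 without libraries A320 and A216. For Sf3b1, r was -0.872 (permutation p = 0.00012, adjusted p = 0.0048) and Spearman's rho -0.846 (permutation p = 0.0003). Without libraries A320 and A216, the 2 farthest from the median, r was -0.727, and within groups it was -0.866 (permutation, adjusted p = 0.005). The muscle share ran from 6.58 to 14.8% with semaglutide, from 1.41 to 8.24% with PYY and from 0.738 to 15.4% with the combination. With the muscle level as a covariate, the semaglutide versus PYY value was -0.56 for Fcho2 and -0.48 for Kmt2e, and the saline versus healthy control values were 1.93 and 1.06.

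With the long-minus-short level, 9 of 10 had a positive r, with a median of 0.589, and 3 of 10 passed adjustment (Fcho2, Trim44 and Kmt2e). Within groups 2 of 10 passed (Fcho2 and Kmt2e), and Trim44 did not (permutation, adjusted p = 0.0935). For Kmt2e, r was 0.817 (permutation p = 0.00044, adjusted p = 0.0088) and rho 0.842 (permutation p = 0.00029). Without libraries A215 and A216 r was 0.709, and within groups it was 0.778 (permutation, adjusted p = 0.0186). With the mitochondrial share and with the number of non-mitochondrial counts, 1 of 10 passed in each, Trim44 both times, at r of 0.786 and -0.66 (permutation, adjusted p = 0.0125 and 0.0383). Within groups, 4 of 10 passed with the number of non-mitochondrial counts (Trim44, Arhgef12, Kmt2e and Sf3b1). The measures and the genes come from the same libraries, so they share depth and composition, and within groups 8 of the 40 relations passed adjustment. Summed osteoblast and osteocyte markers ran from 184 to 783 CPM with semaglutide and from 197 to 7000 CPM with PYY, and fibroblast markers from 98.3 to 183 CPM and from 91.6 to 1660 CPM, none of the 12 and 8 markers being at 0. All tested markers of both lists were lower with semaglutide, with median log2 fold changes of -2.06 and -2.7. So were all 8 of chondrocytes (median -5.67), of endothelium (-0.964), of macrophages (-0.833) and of erythroid cells (-0.763), and 7 of 8 of osteoclasts (-2.6). Summed chondrocyte markers ran from 7.49 to 63.0 CPM with semaglutide (median 14.2) and from 15.6 to 5230 CPM with PYY (median 71.3). These ranges overlapped, so the value of -5.67 does not describe every PYY library. All 13 muscle markers (1.49) and all 7 neutrophil markers (0.626) were higher, as were 5 of 7 B cell markers (0.343) and 4 of 7 adipocyte markers (0.0773). Between semaglutide and PYY no marker passed adjustment (edgeR). The part of these cell types in the values of the 10 genes was not tested.

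**Figure D5:**
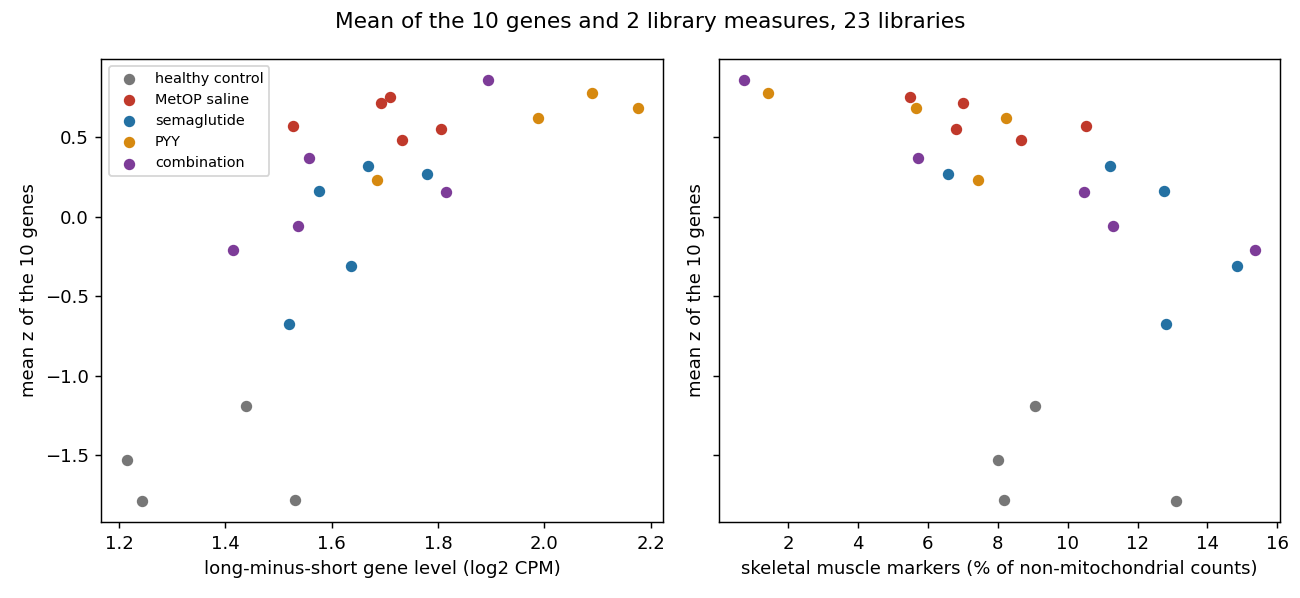
Mean z-score of the 10 genes per library (vertical axis) against the long-minus-short level in log2 CPM (left) and the muscle marker share of non-mitochondrial counts in percent (right); points are the 23 libraries, coloured by group. The 4 healthy control libraries lie lowest, from -1.79 to -1.19, and combination library A320, with a muscle share of 0.738%, lies highest at 0.864.

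The 10 genes varied together only in part over the 14 drug-group libraries. Of the 45 pairs, 39 had a positive Pearson r, with a median of 0.329 and a range from -0.432 to 0.862, and the median within groups was 0.359. Kmt2e and Fcho2 followed the others most (median r of 0.607 and 0.596 with the other 9), and Pnn and Topors least (0.0503 and 0.0919). Outside the 10, genes most like their mean z-score over these 14 libraries included Fchsd2 (r = 0.922), Rin2 (0.921), Irak4 (0.905) and Mertk (0.899). By Spearman's rho 1 of these 4 (Mertk) was among the 5 most alike, and over all 23 libraries 0 were. Their rho over the 14 libraries was 0.842 for Fchsd2, 0.899 for Rin2, 0.82 for Irak4 and 0.912 for Mertk.

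Lists of partner genes, without the 10 themselves, were read for saline against healthy control, the contrast that chose the 10. The lists were built around the 10 with earlier results known, so their counts are a description and not independent evidence. Of 168 genes in 9 lists, 163 were tested. None passed adjustment between saline and healthy control (edgeR). At an unadjusted p under 0.05, 19 were higher (11.7%, beside 4.68% of all tested genes) and 1 lower (0.613%, beside 1.87%). In all, 65.6% were higher, beside 52.5% of all tested genes. The median length of the lists ran from 2450 to 8817 bases. In the length deciles that hold these medians, 46.2 to 66.4% of all tested genes were higher, and the part of length was not tested. The partners of Sf3b1 in U2 and SF3b were mostly not higher: 4 of 17 were higher in saline, with a median of -0.0753, and Snrpb2, a U2 protein, stood at 12.6 ± 2.07 CPM (SD, n = 5) in saline and 18.9 ± 3.71 CPM (n = 4) in healthy control (adjusted p = 0.692 in edgeR). Of the SR proteins and exon junction partners, nearest to Pnn, 22 of 25 were higher, with a median of 0.184. Srrm2, a speckle scaffold, stood at 137 ± 30.1 CPM in saline and 90.3 ± 11.4 CPM in healthy control, and the kinase Clk4 at 43.0 ± 11.8 and 28.9 ± 3.3 CPM.

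Of the spliceosomal helicases and tri-snRNP genes, 12 of 19 were higher, with a median of 0.0469, among them Ddx42 (0.56 ± 0.18) and Dhx16 (0.74 ± 0.26). The KMT2 and trithorax list had 14 of 17 higher and the highest median of the 9, 0.338. It also had the longest median length, 8817 bases against 2899 bases for the U2 list, and the part of length in this order was not tested. Nsd1, a histone methyltransferase, stood at 8.72 ± 2.77 CPM in saline and 3.89 ± 0.80 CPM in healthy control, and Kmt2a at 5.64 ± 2.06 and 2.45 ± 1.27 CPM. Of the MGA and polycomb partners 10 of 15 were higher (median 0.099), and of the elongation complex genes 14 of 17 (median 0.172). Pcgf6, the subunit that gives the MGA complex its name among polycomb complexes, stood at 4.19 ± 1.54 and 1.38 ± 1.16 CPM, and Ccnt1, a cyclin of the elongation kinase, at 1.62 ± 0.35 and 0.137 ± 0.27 CPM.

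Of the RhoA signalling genes 14 of 17 were higher in saline (median 0.254), and the RhoA-dependent kinase Rock1 stood at 16.6 ± 2.92 CPM in saline and 9.01 ± 2.12 CPM in healthy control. Clathrin endocytosis genes had 9 of 19 higher (median -0.00839), with the adaptor Dab2 at 31.4 ± 12.3 and 16.4 ± 4.53 CPM. The SUMO and PML list had 8 of 17 higher (median -0.0191), with the SUMO protease Senp1 at 5.39 ± 2.1 and 2.24 ± 1.66 CPM. The other genes named by rule were Sf3b3 (0.47 ± 0.26), E2f6 (-0.71 ± 0.46), Ccnt2 (0.58 ± 0.27), Cltb (-0.61 ± 0.29) and Pias1 (0.50 ± 0.25), and Gna13 at 1.35 ± 0.95 CPM in saline and 0.229 ± 0.27 CPM in healthy control. Gna13 was also near the floor in healthy control, with a log2 difference of 2.50 ± 0.999 (SE). Adjusted p for all genes named from the 9 lists ran from 0.631 to 0.899 in edgeR.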

How the data were processed

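Polyadenylated RNA of femora was read in 23 libraries grouped by title. The authors deposited raw counts per gene and FPKM values for the same genes. The values show FPKM to be the counts divided by gene length and a depth per library. The submitters' processing notes name build mRatBN7.2 and DESeq2 1.42.0. Aligner and counter: not given in the sources used here. Library kits with and without strand marking both appear in the labels' protocols, so overlapping genes are uncertain. Gene length is the deposited annotation's. Counts were tested with edgeR 4.0.16 (quasi-likelihood, TMM, filterByExpr by group, robust) in R 4.3.3 over all 23 libraries with 1 mean per group, 18 residual degrees of freedom and calls at a Benjamini-Hochberg adjusted p under 0.05. The fit was also run on simulated counts with changes added for the semaglutide libraries. That simulation held none of the length or muscle differences between these libraries, so it cannot show how the test behaves under them. SE is the log2 fold change divided by the square root of F, and log2 CPM used a prior count of 2. Correlations used 100000 permutations over 14 libraries and 20000 within groups or over 23. The members and all lists were chosen with earlier results of these data known. Genes were named by rule: all members, 5 neighbours in rank, 5 most alike (1 is not reported here), and in each list the 2 of smallest p per comparison. Where a symbol had several rows, a list used the one with the highest level. Alternatives were DESeq2 1.42.0, limma 3.58.1 voom, other scalings and filters, covariates and leaving out each library.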

Additional observations from a re-analysis of the deposited data

Results flagged for a closer look

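Dixon's test of the highest and lowest library was run for the 10 genes and 3 library measures in each group, 65 groups of values in all, and 4 passed its 95% critical value. Chance passes about 5% of such groups, which for 65 is about as many as were found.

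Fcho2 in combination library A320 was at 15.2 CPM, above the other four at 5.07 to 7.47 CPM. That library also had the lowest muscle share of all, 0.738%, and the part of muscle RNA in the value was not tested. Dhx15 in saline library A265 was at 40.7 CPM, below the other four at 47.0 to 49.4 CPM. Dhx15 in semaglutide library A240 was at 41.5 CPM, above the other four at 32.0 to 34.7 CPM. Mga in saline library A224 was at 7.58 CPM, below the other four at 8.87 to 9.29 CPM.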

How the results depend on the processing

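No paired analysis was possible because the groups share no replicate numbers. In 20 or 21 alternatives per comparison, none of the 10 genes was called between drug groups. Between saline and healthy control all 200 alternative values of the 10 genes were positive, from 0.34 to 2.28, and 198 of them moved by less than 1 SD. Counts of called genes depended on the tool: DESeq2 called 47 genes for saline versus healthy control, 487 for semaglutide versus PYY, 12 for combination versus semaglutide and 10 for combination versus PYY, where edgeR called 0, 1, 0 and 0. limma voom called 1 for combination versus PYY, and with the long-minus-short level as covariate 0 genes were called for semaglutide versus PYY. Leaving out single libraries gave 1 to 1021 genes for semaglutide versus PYY (1021 without PYY library A220), 0 to 3 for combination versus semaglutide (3 without combination library A251) and 0 to 2 for combination versus PYY (2 without PYY library A220, 1 without combination library A251). Of the 40 relations with library measures, 10 passed by Pearson's r and 16 by Spearman's rho, the latter chosen after seeing the data. For semaglutide versus PYY, values near 0 changed sign. Aff1 was at -0.037 with limma voom and at -0.0027 with the long-minus-short covariate, and Topors at -0.0090 with DESeq2 and -0.0082 with RLE scaling. Arhgef12 was at 0.17 with the long-minus-short covariate and Pnn at 0.017 with the muscle covariate. Without single libraries Aff1 ran from -0.13 to 0.22, Pnn from -0.17 to 0.022 and Topors from -0.062 to 0.057. For combination versus PYY, Kmt2e was at 0.068 with the long-minus-short covariate. Causes of these shifts were not tested. With 4 or 5 libraries per group and 4.28 to 16.1 M non-mitochondrial counts, small differences were not detectable. The common biological coefficient of variation, fitted by edgeR over all tested genes, was 69.9%. A different measure, the SD of CPM as a percentage of the mean within a group, was taken for the 10 genes. It ran from 4.68% (Sf3b1, healthy control) to 49.5% (Fcho2, combination) and is not comparable with the fitted value.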

Other observations

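Of the 163 partner genes of the 10, none passed adjustment between semaglutide and PYY (edgeR), while 11 were higher and 17 lower with semaglutide at an unadjusted p under 0.05. These are 6.75 and 10.4% of the partners, close to the 6.93 and 9.93% of all tested genes. The clathrin adaptor Dab2 stood at 13.8 ± 4.29 CPM (SD, n = 5) with semaglutide and 41.7 ± 19.7 CPM (n = 4) with PYY (log2 fold change -1.59, adjusted p = 0.0813 in edgeR), and Epn1, another endocytic adaptor, at 37.2 ± 2.93 and 20 ± 3.93 CPM (0.90, adjusted p = 0.0885). RhoA signalling genes were lower for 12 of 17, with a median of -0.378. The other 8 lists had medians from -0.199 to 0.104, all tested genes -0.0646, and genes in the length decile of the median RhoA gene (5728 bases) -0.18; the part of length was not tested. By the naming rule, these included Rhoc at 12.2 ± 2.56 and 21.1 ± 5.48 CPM and the myosin kinase Mylk at 20.8 ± 5.39 and 46.3 ± 13.8 CPM.

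The MAX partner Myc stood at 4.28 ± 1.3 CPM with semaglutide and 9.23 ± 1.36 CPM with PYY (log2 fold change -1.11, adjusted p = 0.169 in edgeR), and the MYC antagonist Mxi1 at 44.9 ± 12 and 29.2 ± 8.42 CPM. Among splicing genes, the helicase Ddx23 stood at 60 ± 12.1 and 37.1 ± 8.39 CPM (0.69, adjusted p = 0.152 in edgeR), and the SR protein Srsf7 at 39.7 ± 5.43 and 53.0 ± 3.3 CPM. In the SUMO and PML list, Atrx, a chromatin remodeller, stood at 23.6 ± 5.08 and 33.2 ± 5.66 CPM and Sp100, a PML body protein, at 18.1 ± 8.53 and 33.7 ± 10.9 CPM. The other genes named by rule had log2 fold changes of -0.62 (Sf3b4), 0.29 (Sf3b6), 1.11 (Sap18), 0.78 (Prpf19), -0.69 (Men1), 0.39 (Ash2l), -0.72 (Eaf1) and 0.62 (Hexim1), with adjusted p from 0.259 to 0.6 in edgeR.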
